A study of Mus musculus with 6 samples.

Results

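The expression of 9 genes of the mitogen-activated protein (MAP) kinase cascade was examined in bEND.3 cells after knockdown of the long non-coding RNA Gm39822. The members were taken by symbol and comprised 4 MAP kinases (Mapk3, Mapk8, Mapk9 and Mapk14), 2 MAP kinase kinases (Map2k1 and Map2k2) and 3 dual-specificity phosphatases (Dusp1, Dusp4 and Dusp6), out of 49315 genes listed in the count table. bEND.3 is an established mouse line of brain endothelial cells, immortalised with the polyomavirus middle T antigen. All 6 samples were transfected, in a lipid reagent, with an antisense LNA GapmeR at 100 nM, an oligonucleotide that directs RNase H to cut the RNA it pairs with. The 4 GapmeR samples received an oligonucleotide against Gm39822 and the 2 negative control samples a control oligonucleotide, and total RNA was sequenced after ribosomal depletion. Each arm rests on 1 oligonucleotide sequence in 1 cell line, and no untransfected cells were analysed here. The labels do not say whether samples of a group came from separate cultures, so p-values measure only the spread between these samples.

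MAP kinase cascades relay signals from growth factors, cytokines and stress. A MAP kinase kinase kinase such as RAF phosphorylates a MAP kinase kinase, which phosphorylates a MAP kinase on a threonine and a tyrosine. The main branches end in ERK, JNK and p38, and dual-specificity phosphatases remove both phosphates. Several of these phosphatases are themselves transcribed in response to MAP kinase activity, which makes them part of a negative feedback. In endothelial cells the ERK branch is known for its role in the response to VEGF, and the JNK and p38 branches for their role in the response to inflammatory cytokines. RNA counts measure transcript levels and not the phosphorylated, active forms of the kinases.

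Between 29261988 and 37117934 reads per sample were assigned to genes. Gm39822 was counted 2, 1, 4 and 2 times in GapmeR samples 1 to 4 and 61 and 56 times in the controls, which is 0.0689 ± 0.0433 (SD, n = 4) against 1.99 ± 0.334 (SD, n = 2) CPM, the read count scaled to the effective library size. Its log2 fold change was -4.83 (SE 0.41, adjusted p = 8.8e-08 by the edgeR quasi-likelihood test). Fold changes are GapmeR over control, and a gene was called at a Benjamini-Hochberg adjusted p below 0.05 over the 18234 genes tested. Of these, 45.3% were called, 20% lower and 25.4% higher in GapmeR samples, so that calls were common. The median log2 fold change of all genes tested was 0.03. The endothelial markers fitted the label, with the sum of 12 markers at 6550 to 7530 CPM in GapmeR samples and 8640 to 8880 CPM in controls, and 7 of the 12 were called lower and 1, Erg, higher. The sum of 13 macrophage markers was 211 to 395 CPM in GapmeR samples, with the highest values in GapmeR 3 and 4, and 176 to 181 CPM in controls, and 2 of the 13 were called higher. Summed markers of smooth muscle cells and pericytes were at 8.5 to 12.9 against 1.94 to 2.04 CPM, a difference carried by Myh11 (182 to 210 against 10 and 8 counts) and Tagln (57 to 86 against 8 and 24 counts), while Pdgfrb, Rgs5, Cspg4, Des and Cnn1 had 0 to 21 counts in every sample. Those of fibroblasts were at 17.2 to 92.0 CPM, highest in GapmeR 3, against 15.9 to 17.5 CPM, and those of T and B cells at 0.805 to 1.03 against 0.292 to 0.47 CPM. The part of such cells in the results was not tested. In bulk RNA, fewer cells of a type and less RNA per cell cannot be told apart.

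The promoters of Dusp1, Map2k1, Map2k2 and Mapk9 are shown first, chosen by role and by level in these data. Dusp1 is the immediate-early phosphatase, and Map2k1 and Map2k2 are the MAP kinase kinase pair whose members fell to different degrees. Mapk9 is the kinase whose values were higher in GapmeR samples, though it was not called. The RefSeq table (GRCm38.p6, the build to which the reads were aligned) held start sites for 7 of the 9 members, with 9 promoters in all. The promoters of Mapk3 and Dusp4 were missing from it and were not searched. Each run is the 250 bases before the start site of a transcript in that table, 5′ to 3′ on the gene's strand. Capitals mark the CRE core TGACG, to which CREB and ATF proteins bind, and the GC box GGGCGG, to which SP1 binds, each searched on both strands. The whole CRE, TGACGTCA, contains a core on each strand, so 1 whole site counts as 2 cores.
Dusp1, chr17:26508473-26508722, minus strand: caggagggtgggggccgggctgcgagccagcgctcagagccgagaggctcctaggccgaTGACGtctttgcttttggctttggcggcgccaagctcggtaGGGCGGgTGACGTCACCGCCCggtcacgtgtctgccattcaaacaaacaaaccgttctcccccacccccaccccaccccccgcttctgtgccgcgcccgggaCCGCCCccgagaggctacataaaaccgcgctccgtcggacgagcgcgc
Map2k1, chr9:64253606-64253855, minus strand: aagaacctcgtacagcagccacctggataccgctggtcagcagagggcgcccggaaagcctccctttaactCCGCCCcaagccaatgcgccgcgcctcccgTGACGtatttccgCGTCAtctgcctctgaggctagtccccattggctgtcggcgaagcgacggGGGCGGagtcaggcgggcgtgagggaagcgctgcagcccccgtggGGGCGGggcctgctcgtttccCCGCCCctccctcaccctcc
Map2k2, chr10:81105665-81105914, plus strand: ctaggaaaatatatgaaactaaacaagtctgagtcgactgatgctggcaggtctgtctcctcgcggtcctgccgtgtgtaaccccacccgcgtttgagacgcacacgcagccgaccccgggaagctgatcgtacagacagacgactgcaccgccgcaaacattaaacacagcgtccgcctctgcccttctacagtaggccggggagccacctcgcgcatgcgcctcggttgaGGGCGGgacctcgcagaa
Mapk9, chr11:49846501-49846750, plus strand: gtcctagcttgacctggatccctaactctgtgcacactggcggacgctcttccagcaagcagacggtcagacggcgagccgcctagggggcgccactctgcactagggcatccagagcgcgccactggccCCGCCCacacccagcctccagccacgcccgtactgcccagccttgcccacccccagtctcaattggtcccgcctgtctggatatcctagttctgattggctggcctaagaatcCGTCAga
The Dusp1 promoter held 3 CRE cores and 3 GC boxes. A pair of those cores formed a whole CRE with its first base at -143, counted from the start site. The Map2k1 promoter held 2 cores and 4 GC boxes, whereas the Map2k2 promoter held 0 cores and 1 GC box. The Mapk9 promoter held 1 of each. Its last 23 bases, which hold the core, lie inside the gene range given below, which begins at another start site. Of the 2 Mapk8 promoters, the one farther upstream held 2 cores and 7 GC boxes and the other held 0 of either, and 195 and 250 of their bases lie inside the gene range. Of the 2 Mapk14 promoters, the one farther upstream held 0 cores and 1 GC box. The other Mapk14 promoter, which lies inside the gene range, held 0 of either. The Dusp6 promoter held none of these motifs. Of the 32851 promoters in the RefSeq table, 1.55% held a whole CRE, 17.8% a core and 32.7% a GC box. The AP-1 site TGANTCA, present in 6.75% of all promoters, and the ETS site CCGGAAG, present in 6.91%, were in none of the 9 promoters of the members. These matches describe letters in a window and not bound factors.

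Expression was lower in GapmeR samples for 7 of the 9 members, and for none was it called higher. The members called lower were Mapk3, Mapk14, Map2k1, Map2k2, Dusp1, Dusp4 and Dusp6, while Mapk8 and Mapk9 were not called. Against this count, 20% of all genes tested were called lower, and 30.7% of the 8870 genes with a mean of at least 10 CPM, a level that all members exceeded. The median log2 fold change of the members was -0.415, beside -0.07 for the genes with at least 10 CPM. At a fold change of at least 1.5, Map2k1, Dusp1 and Dusp4 were called lower, against 7.62% of all genes tested. GapmeR and control values did not overlap for 8 members, 7 of them lower and 1, Mapk9, higher in GapmeR samples. Without overlap, 27.3% of all genes tested were lower and 31.9% were higher. Leaving out GapmeR 3 and 4, the samples with more macrophage marker counts, an alternative chosen after seeing the data, gave 7 members called lower and 0 higher.

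**Figure D1:**
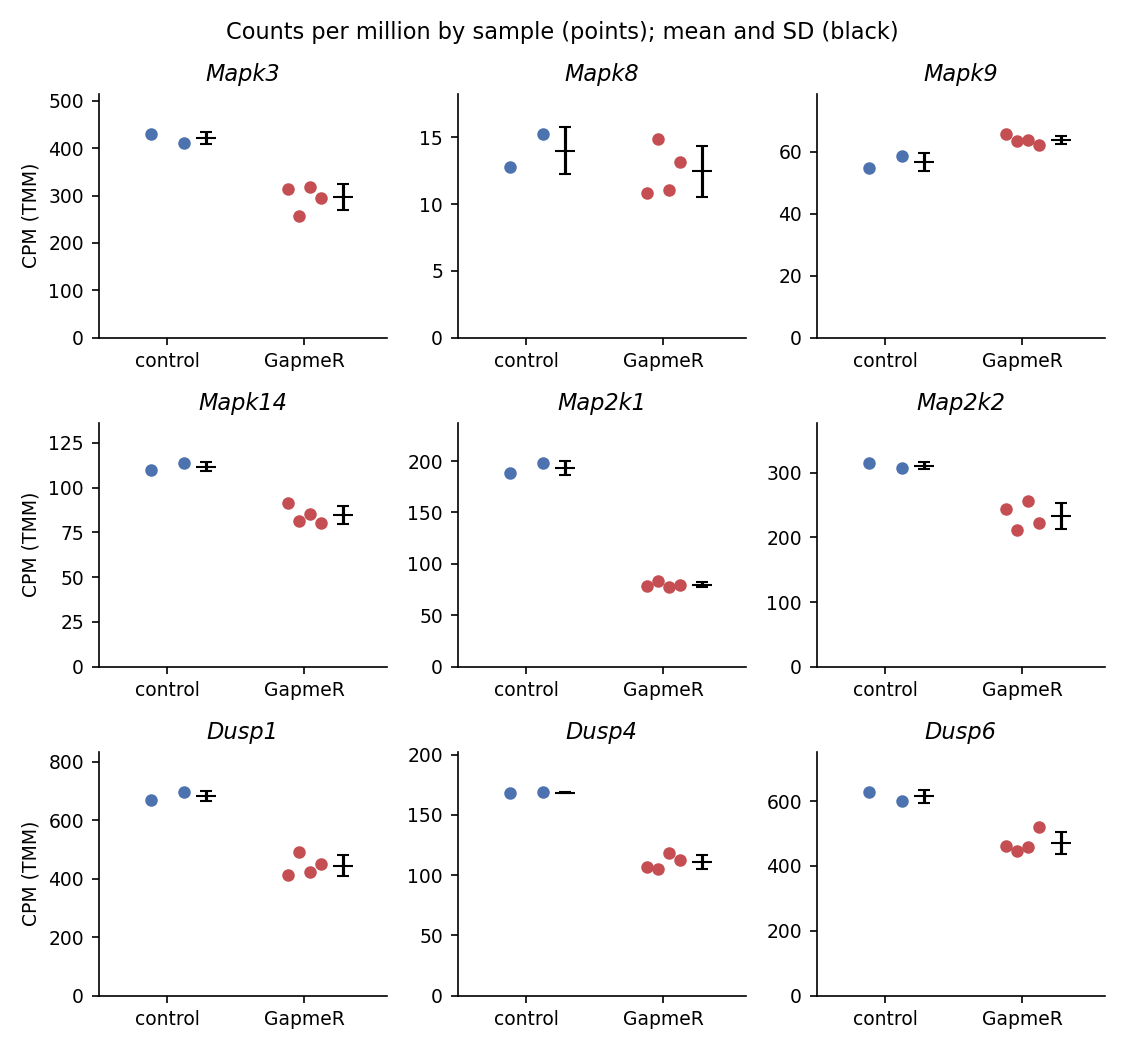
Normalised read counts (CPM, TMM-scaled, axes from 0) of the 9 members in each of 2 negative control samples (blue) and 4 GapmeR samples (red), with the mean and SD of each group in black. The groups are apart for every member except Mapk8, and Map2k1 shows the widest gap for its size, at 188 and 198 CPM in controls and 77.9 to 83.7 CPM in GapmeR samples.

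Map2k1 encodes MEK1, which phosphorylates ERK, and it fell the most of the 9 members. The gene (ENSMUSG00000004936) lies at chr9:64185769-64253605 on the minus strand. Its level was 78.6, 83.7, 77.9 and 79.5 CPM in GapmeR samples 1 to 4 and 188 and 198 CPM in the controls. All GapmeR values were thus below both control values, and the spread within either group was small beside the gap. The means were 79.9 ± 2.63 (SD, n = 4) and 193 ± 6.87 CPM (SD, n = 2). The log2 fold change was -1.27 (SE 0.07, edgeR adjusted p = 3.2e-10), or 2.42-fold lower. Only 96 of the 8870 genes with at least 10 CPM, or 1.08%, fell by as much or more. The exons of Map2k1 share 1181 bases, 31.4% of their length, with Snapc5, a gene for a subunit of the snRNA-activating complex on the opposite strand. The strand setting of the counting was not given in the sources used here, so reads from the shared stretch cannot be told apart. Snapc5 itself was at 21.7 ± 3.55 CPM in GapmeR samples and 16.9 ± 1.02 CPM in controls (log2 fold change 0.37, edgeR adjusted p = 0.03).

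Map2k2 encodes MEK2, the second kinase that acts on ERK. The gene (ENSMUSG00000035027) lies at chr10:81105913-81124697 on the plus strand. It was at 244, 211, 256 and 222 CPM in GapmeR samples 1 to 4 and at 315 and 307 CPM in the controls. The highest GapmeR value stayed below the lower control value. Its log2 fold change was -0.415 (SE 0.08, edgeR adjusted p = 0.00062), a smaller fall than that of Map2k1. The ratio of Map2k1 to Map2k2 CPM was 0.323, 0.397, 0.304 and 0.358 in GapmeR samples and 0.598 and 0.645 in controls. The ratio was therefore lower in all 4 GapmeR samples, by 0.85 on the log2 scale (exact two-sided permutation test, p = 0.0667, 0.2 after adjustment over 6 ratios). With 4 samples against 2, the 15 possible splits allow no p below 0.0667, so this test could not reach 0.05.

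**Figure D2:**
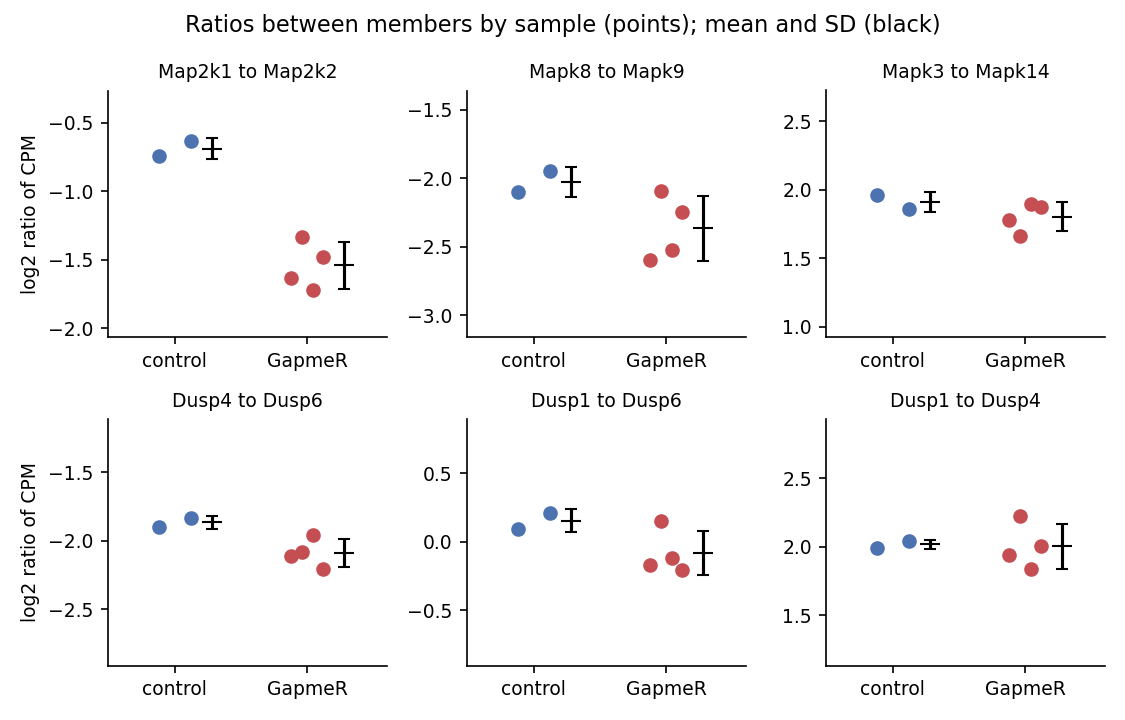
Log2 ratios of CPM between members in each control (blue) and GapmeR (red) sample, with the mean and SD in black; every panel spans the same height on the log2 scale. Map2k1 to Map2k2 and Dusp4 to Dusp6 are the panels in which the groups do not overlap, and the former has the larger gap, 0.85 against 0.22.

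Among the MAP kinases, Mapk3 encodes ERK1, the target of MEK1 and MEK2. The gene (ENSMUSG00000063065) lies at chr7:126759626-126765816 on the plus strand. Mapk3 was at 314, 258, 317 and 295 CPM in GapmeR samples 1 to 4 and at 429 and 412 CPM in the controls. GapmeR 2 was the lowest sample, and no GapmeR value reached the controls. The log2 fold change was -0.51 (SE 0.09, edgeR adjusted p = 0.00014).

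Mapk14 encodes p38α, the broadly expressed p38 kinase of the stress and cytokine response. The gene (ENSMUSG00000053436) lies at chr17:28691342-28748405 on the plus strand. It was at 91.5, 81.5, 85.6 and 80.4 CPM in GapmeR samples and at 110 and 114 CPM in controls. The groups did not overlap, and the log2 fold change was -0.40 (SE 0.07, edgeR adjusted p = 0.00031). The ratio of Mapk3 to Mapk14 was 3.16 to 3.71 in GapmeR samples and 3.62 and 3.9 in controls. These ratios overlapped (log2 difference -0.11, exact two-sided permutation p = 0.333, 0.4 adjusted over 6 ratios).

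Mapk8 and Mapk9 encode JNK1 and JNK2, which phosphorylate JUN. Mapk8 (ENSMUSG00000021936, chr14:33377898-33447353, minus strand) was at 10.8, 14.9, 11.1 and 13.1 CPM in GapmeR samples and at 12.7 and 15.2 CPM in controls. The groups overlapped, since GapmeR 2 and 4 lay above the lower control. The log2 fold change was -0.17 with a 95% interval from -0.45 to 0.12 (edgeR adjusted p = 0.33), which leaves room for a fall as large as that of Mapk14. Mapk9 (ENSMUSG00000020366, chr11:49846728-49886421, plus strand) was at 65.7, 63.6, 63.7 and 62.3 CPM in GapmeR samples and at 54.7 and 58.8 CPM in controls. Every GapmeR value was above both control values. Its log2 fold change was 0.17 with a 95% interval from 0.02 to 0.32 (edgeR adjusted p = 0.059), which did not pass the threshold. Its call depended on the scaling, with a log2 fold change of 0.32 (edgeR adjusted p = 0.0016) when samples were scaled by library size alone. The ratio of Mapk8 to Mapk9 was 0.165 to 0.234 in GapmeR samples and 0.233 and 0.259 in controls, and the groups overlapped (exact two-sided permutation p = 0.2, 0.3 adjusted over 6 ratios).

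Dusp1 encodes MKP-1, a nuclear phosphatase that acts on p38 and JNK as well as ERK and is induced as an immediate-early gene. The gene (ENSMUSG00000024190) lies at chr17:26505591-26508472 on the minus strand, next to the CRE-bearing promoter printed above. Dusp1 was at 411, 492, 423 and 451 CPM in GapmeR samples 1 to 4 and at 670 and 696 CPM in the controls. GapmeR 2 was the highest of its group and still well below either control. The means were 444 ± 36.0 (SD, n = 4) and 683 ± 18.4 CPM (SD, n = 2). The log2 fold change was -0.62 (SE 0.08, edgeR adjusted p = 1.3e-05).

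Dusp4 encodes MKP-2, another inducible nuclear phosphatase. The gene (ENSMUSG00000031530) lies at chr8:34807610-34819894 on the plus strand. It was at 107, 105, 118 and 113 CPM in GapmeR samples and at 168 and 169 CPM in controls. The controls were nearly equal and far above the highest GapmeR sample. The means were 111 ± 5.98 (SD, n = 4) and 169 ± 0.422 CPM (SD, n = 2). The log2 fold change was -0.61 (SE 0.07, edgeR adjusted p = 3.8e-06).

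Dusp6 encodes MKP-3, a cytoplasmic phosphatase with a strong preference for ERK that is used as a transcript readout of ERK activity. The gene (ENSMUSG00000019960) lies at chr10:99263231-99267489 on the plus strand. It was at 461, 445, 458 and 520 CPM in GapmeR samples and at 627 and 601 CPM in controls. Of its exon bases, 685 (20.2%) lie opposite the annotated lncRNA Gm56965, whose reads cannot be told apart without strand. GapmeR 4 stood above the rest of its group but below both controls. The log2 fold change was -0.38 (SE 0.08, edgeR adjusted p = 0.00091). Relative to Dusp6, Dusp4 was lower in all GapmeR samples, at ratios of 0.217 to 0.258 against 0.268 and 0.281 (exact two-sided permutation p = 0.0667, the smallest possible, 0.2 adjusted over 6 ratios). The Dusp1 to Dusp6 ratio overlapped between the groups (log2 difference -0.24, exact p = 0.2, 0.3 adjusted). The Dusp1 to Dusp4 ratio overlapped as well (log2 difference -0.01, exact p = 1), and its sign changed with the samples included.

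**Figure D3:**
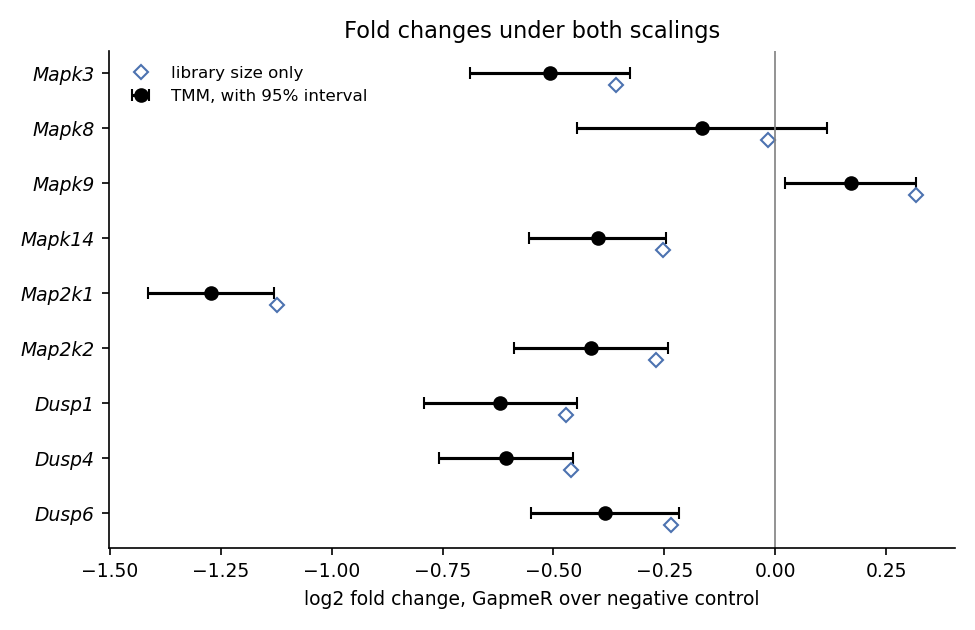
Log2 fold changes (GapmeR over negative control) of the 9 members with TMM scaling and their 95% intervals (black) and with scaling by library size alone (open diamonds). Scaling by library size moves all points to the right, yet Mapk3, Mapk14, Map2k1, Map2k2 and the 3 phosphatases remain below 0 and Mapk9 above it.

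Levels of different genes can be compared only per transcript length, here CPM per kilobase of the canonical transcript. In the controls the order was Dusp1 (343 ± 9.25 CPM per kilobase, SD, n = 2), Mapk3 (234 ± 7.0), Dusp6 (217 ± 6.59), Map2k2 (144 ± 2.56), Map2k1 (78.4 ± 2.79), Mapk14 (67.6 ± 1.58), Dusp4 (61.3 ± 0.153), Mapk9 (11.3 ± 0.579) and Mapk8 (5.29 ± 0.666). In the GapmeR samples Dusp6 (166 ± 11.7 CPM per kilobase, SD, n = 4) and Mapk3 (164 ± 15.2) did not differ beyond their spread. Map2k1 (32.4 ± 1.07) stood below Mapk14 (51.2 ± 3.03) and Dusp4 (40.3 ± 2.18) in these samples, whereas it stood above both in the controls. JNK transcripts were thus the least abundant of the members per length in both groups. The order depended on the length used. Over the union of all annotated exons, Map2k1 was at 51.3 CPM per kilobase in controls and 21.3 in GapmeR samples, above Mapk14 (21.9 and 16.6) and below Dusp4 (58.6 and 38.5) in both groups, so that this change of order was seen with canonical lengths alone. By that measure Map2k2 was at 34.9 and 26.2 CPM per kilobase, below Map2k1 in the controls and above it in GapmeR samples. Summed over canonical lengths, the 4 MAP kinases came to 211 to 247 CPM per kilobase in GapmeR samples and 315 and 321 in controls. The 2 MAP kinase kinases came to 132 to 150 and 222 in both controls, and the 3 phosphatases to 408 to 451 against 619 and 623.

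The other genes of the cascade were taken from 11 lists with 138 genes tested. Of these, 45 were called lower, 24 were called higher and 69 were not called, with a median log2 fold change of -0.146. The shares over all genes tested were 20% lower and 25.4% higher. Of the genes with a mean of at least 10 CPM, 30.7% were called lower. No list was tested as a set, so its counts are to be read beside these shares. When samples were scaled by library size alone, 29 were called lower and 36 higher. Among all genes the same change of scaling moved the calls from 3643 lower and 4625 higher to 2135 lower and 6106 higher, and it shifted the median log2 fold change of all genes by 0.148. With TMM scaling, the lists in which every call was in the lower direction were the other MAP kinase phosphatases, the RAS-ERK inhibitors, the ERK output transcripts and the AU-rich element binding proteins.

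**Figure D4:**
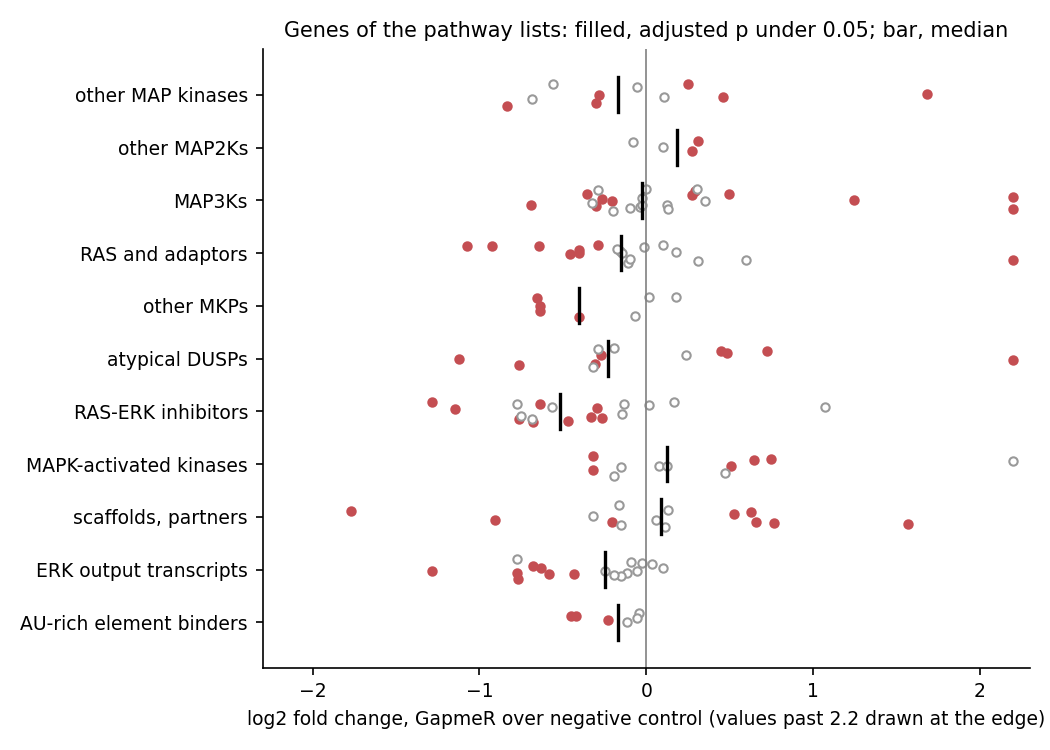
Log2 fold changes (GapmeR over negative control) of the tested genes of each pathway list, filled red where the adjusted p was below 0.05 and open where it was not, with the list median as a black bar; 5 points past 2.2 are drawn at the edge. With TMM scaling, calls lie on both sides of 0 for other MAP kinases, MAP3Ks, RAS and adaptors, atypical DUSPs, MAPK-activated kinases and scaffolds. They lie on the lower side alone for other MKPs, RAS-ERK inhibitors, ERK output transcripts and AU-rich element binders. For other MAP2Ks they lie on the higher side alone. Under library size alone, other MKPs, RAS-ERK inhibitors and ERK output transcripts each have 1 gene called higher.

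Of the 7 other MAP kinase phosphatases, 4 fell, 0 rose and 3 were not called (median log2 fold change -0.404). Dusp5, a nuclear ERK phosphatase, fell from 302 ± 17.9 to 192 ± 9.61 CPM (log2 fold change -0.65, edgeR adjusted p = 2.5e-06). Dusp9, a cytoplasmic ERK phosphatase, fell from 11.8 ± 0.704 to 7.62 ± 0.748 CPM (-0.64, edgeR adjusted p = 0.00038). Under library size alone, 4 of the list were called lower and 1 higher. The 12 atypical dual-specificity phosphatases, most of which are not known for acting on MAP kinases, split into 4 lower, 4 higher and 4 not called, and into 2 lower and 5 higher under library size alone. Dusp28 (17.3 ± 1.08 to 7.97 ± 1.57 CPM) and Dusp18 (22.9 ± 0.365 to 13.5 ± 1.17 CPM) fell, whereas Dusp11 (52.4 ± 1.43 to 73.5 ± 2.33 CPM), an RNA triphosphatase, and Dusp22 (2.57 ± 0.224 to 4.24 ± 0.393 CPM) rose.

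Of the 18 inhibitors of RAS-ERK signalling and tyrosine phosphatases of MAP kinases, 9 fell and none was called higher (median log2 fold change -0.516), and under library size alone 6 were called lower and 1 higher. Spry4, a Sprouty protein that blocks signalling upstream of RAF, fell from 22.3 ± 0.458 to 9.18 ± 0.906 CPM (log2 fold change -1.28, edgeR adjusted p = 5.2e-08). Rin1, which competes with RAF for RAS, fell from 148 ± 5.05 to 87.3 ± 3.79 CPM (-0.77, edgeR adjusted p = 2.1e-07). Of 17 transcripts used as readouts of ERK output, 7 fell and none was called higher (median -0.247), and 2 of the 17, Spry2 and Spry4, also stand in the inhibitor list. Under library size alone 7 were called lower and 1 higher. Etv4, an ETS factor downstream of ERK, fell from 21.5 ± 0.388 to 12.6 ± 1.18 CPM (-0.78, edgeR adjusted p = 1.1e-05). The remaining 10 were not called, among them Egr1, at 189 ± 17.2 CPM in GapmeR samples and 205 ± 7.27 CPM in controls, and Ccnd1, at 2431 ± 78.6 and 2264 ± 38.8 CPM. Egr1 and Ccnd1 were chosen after their values were seen.

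Of the 10 other MAP kinases, 3 fell and 3 rose (median -0.17), against 1 lower and 3 higher under library size alone. Nlk, the Nemo-like kinase, fell from 38.3 ± 2.96 to 21.5 ± 2.57 CPM and Mapk6, which encodes ERK3, from 321 ± 7.01 to 261 ± 11.1 CPM, but Mapk6 was called under 10 of 14 alternatives, the losses including library size alone (edgeR adjusted p = 0.09), control 2 left out (0.071) and GapmeR 3 and 4 left out (0.056). Mapk11, which encodes p38β, rose from 40.8 ± 0.325 to 56.2 ± 3.16 CPM, in contrast to Mapk14. Mapk7, which encodes ERK5, rose from 69.6 ± 2.68 to 82.9 ± 2.71 CPM, a call lost without control 1 (edgeR adjusted p = 0.09). Of the 4 other MAP kinase kinases tested, Map2k5, the activator of ERK5, rose from 12.5 ± 0.988 to 15.1 ± 0.707 CPM and Map2k6, an activator of p38, from 8.49 ± 0.134 to 10.5 ± 0.881 CPM, while none fell (median 0.187). Map2k5 was called under 8 and Map2k6 under 7 of 14 alternatives. Of the 6 genes of this family tested, Map2k1 and Map2k2 were the ones called lower. Both had been chosen as members with earlier results of these data known. The shares called lower were 20% of all genes tested and 30.7% of those with a mean of at least 10 CPM.

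Upstream, the 23 MAP3K genes split into 5 lower, 6 higher and 12 not called (median -0.03), and into 1 lower and 8 higher under library size alone. Map3k14, the NF-κB-inducing kinase, rose from 7.36 ± 0.126 to 17.5 ± 1.74 CPM and Map3k20, a stress-activated kinase, from 65.7 ± 3.80 to 92.6 ± 2.05 CPM. Map3k5, the apoptosis signal-regulating kinase, fell from 5.33 ± 0.718 to 3.30 ± 0.334 CPM, a call lost without control 1 (edgeR adjusted p = 0.075). Map3k4 fell from 19.8 ± 0.562 to 15.5 ± 0.863 CPM, a call lost with library size alone (edgeR adjusted p = 0.087) and without control 2 (0.086). Of 18 RAS proteins, exchange factors and adaptors, 7 fell, 1 rose and 10 were not called (median -0.152). Under library size alone 5 were lower and 3 higher, and without control 2 only 3 were lower. The adaptor Gab2 fell from 72.9 ± 2.85 to 34.6 ± 2.33 CPM, and the exchange factor Rasgrp1 from 2.17 ± 0.0760 to 1.15 ± 0.450 CPM, the latter not called with control 1 or control 2 left out (edgeR adjusted p = 0.077 and 0.12). Rasgrp2, an exchange factor known for acting mainly on RAP1, rose, with 136, 150, 101 and 137 counts in GapmeR samples and 3 and 5 counts in controls.

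Downstream, 3 of 11 kinases phosphorylated by MAP kinases rose and 2 fell (median 0.12), against 5 higher and 1 lower under library size alone. Mapkapk3 rose from 7.20 ± 0.583 to 12.1 ± 0.968 CPM and Mapkapk5 from 26.0 ± 0.421 to 40.7 ± 8.71 CPM, the latter called under 10 of 14 alternatives. Mknk2, an eIF4E kinase, fell from 165 ± 6.29 to 132 ± 3.71 CPM, and Rps6ka3, which encodes RSK2, from 140 ± 4.45 to 112 ± 8.04 CPM, the latter called under 10 of 14 alternatives and not with library size alone (edgeR adjusted p = 0.082). Without control 2, Mknk2 was not called either (edgeR adjusted p = 0.058). Of 14 scaffolds and activating partners, 5 rose and 3 fell (median 0.09). Gadd45b, a stress-induced activator of MAP3K4, fell from 61.7 ± 7.63 to 18.1 ± 1.30 CPM (log2 fold change -1.77, edgeR adjusted p = 1.6e-10), and Sh3rf1, a JNK scaffold, fell from 23.0 ± 2.96 to 12.3 ± 0.566 CPM. Mapk8ip3, a JNK scaffold and motor adaptor, rose from 68.2 ± 0.348 to 202 ± 10.0 CPM (1.57, edgeR adjusted p = 1.6e-10), and Tab1, a partner of TAK1 and p38α, rose from 11.6 ± 0.923 to 19.7 ± 1.68 CPM. Of 6 AU-rich element binding proteins, which control the decay of transcripts such as those of inflammatory genes, 3 fell (median -0.171). Under library size alone 2 were called lower and 0 higher, and at the 1.5-fold threshold 0 were called lower. Zfp36 was at 57.5 ± 0.570 CPM in controls and 43.0 ± 4.23 in GapmeR samples, and Zfp36l1 at 71.2 ± 5.08 and 52.1 ± 3.41.

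The list genes whose levels ran closest to the phosphatases over the 6 samples were identified among 123 genes. For Dusp1 these were Spry2 (Pearson r = 0.994) and Nlk (r = 0.99), for Dusp4 they were Spry4 (r = 0.995) and Dusp18 (r = 0.995), and for Dusp6 they were Frs2 (r = 0.997), an adaptor of the FGF receptor, and Myc (r = 0.99). Each r spans both groups and so contains the difference between them, and all values share the same 6 libraries and scaling factors. The likeness is given as a description without a test.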

How the data were processed

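RNA of 6 bEND.3 samples was analysed. The authors removed ribosomal RNA, read both fragment ends on a HiSeq2500 and ran bcbio-nextgen, with STAR alignment to mm10 after trimming. The submitters' processing notes name Trimmomatic 0.36, STAR 2.5.2b and Subread 1.5.2. The counting program's strand setting was not given in the sources used here. The authors deposited whole-number read counts per Ensembl gene, neither normalized nor filtered. 1 count column, named like a negative control, matched no sample label and was not used. The study describes 4 samples in either group, and 4 GapmeR and 2 negative control samples were analysed here.

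Only genes that reached 5 counts in 2 or more samples entered the edgeR 4.0.16 quasi-likelihood test (R 4.3.3, robust, TMM scaling, biological coefficient of variation 8.42%), GapmeR against negative control, with Benjamini-Hochberg adjustment. The script was tested on simulated data. Ratios between members were taken on the counts of a sample with 0.5 added to each, which is close to the ratio of CPM. They were compared by exact permutation with numpy 2.4.6 under Python 3.11.15. Alternatives were DESeq2 1.42.0, limma 3.58.1 (voom), other scalings and filters, and samples left out. Transcript lengths and exon overlaps came from a GRCm39 annotation and gene positions from RefSeq on GRCm38. Intervals on fold changes are 95% intervals of the fit.

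The members and lists were chosen with earlier results of these data known. Besides the members, the text names up to 2 called genes of each list with the highest and 2 with the lowest fold changes at a mean of at least 1 CPM, and for each phosphatase the 2 list genes with the highest Pearson r. Replicate samples differed by more than counting noise, so none was counted as a duplicate. At the depth of 29261988 to 37117934 reads per sample, each member had 343 or more counts in every sample. 1 gene of the lists is not reported here by name.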

Additional observations from a re-analysis of the deposited data

Results flagged for a closer look

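Of 48 genes and ratios examined, 3 had a GapmeR sample far from the other 3, where chance alone flags about 1 in 20 groups. Mapk11 was at 51.5 CPM in GapmeR 2 and at 57.6 to 58.0 CPM in the other GapmeR samples, a gap of 0.929 of the group's range. Sh3rf1 was at 13.1 CPM in GapmeR 4 and at 11.9 to 12.1 CPM in the others, a gap of 0.831 of the range. Mapk8ip3 was at 217 CPM in GapmeR 4 and at 196 to 199 CPM in the others, a gap of 0.876 of the range. No member of the kinase and phosphatase set stood out in this way.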

How the results depend on the processing

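Mapk3, Mapk14, Map2k1, Map2k2, Dusp1, Dusp4 and Dusp6 were lower at an adjusted p below 0.05 under every alternative scaling, tool, filter and sample left out, and at a 1.5-fold threshold 3 members were called lower, with the adjusted and the unadjusted p. Mapk9 was called higher, making 1 member higher, with library size alone (log2 fold change 0.32), with at least 10 counts in every sample (0.22) and without GapmeR 2 (0.17, adjusted p = 0.032). With single samples left out, Mapk9 ranged from 0.14 to 0.245 and the members called higher from 0 to 1. The genes called lower were 2135 with library size alone and 1390 at the 1.5-fold threshold, and ranged from 1930 (without control 2; 2262 without control 1) to 3949 with single samples left out. List genes called lower numbered 29 with library size alone, 20 at the 1.5-fold threshold and 26 without control 2, up to 48 with other samples left out, and those called higher 13 at the 1.5-fold threshold. A lone remaining control is assumed to vary like the GapmeR samples. The sign of the Dusp1 to Dusp4 ratio difference changed, with a range of -0.089 to 0.041 when samples were left out. The cause of these changes was not tested.

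With a replicate block over GapmeR 1 and 2 and controls 1 and 2, which leaves 1 residual degree of freedom, the Dusp1 to Dusp4 ratio difference was 0.068 and no member's call changed. Deviations of same-numbered samples from their group means correlated at -0.113 and 0.176. With 2 controls these deviations are equal and opposite, so the correlations cannot decide whether the numbers pair the samples. For Mapk8, the member with the fewest counts, log2 changes between -0.45 and 0.12 could not be told apart, given the spread between these samples.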
